A study of Mus musculus with 12 samples.

Results

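The transporters that carry drugs and conjugates into and out of hepatocytes were examined in the livers of mice fed 4 diets. The 9 genes were chosen by symbol: the uptake carriers Slco1a1, Slco1a4, Slco1b2, Slco2b1 and Slc22a7, the canalicular pumps Abcc2 and Abcg2, and the basolateral pumps Abcc3 and Abcc4. They were represented by 10 probes of the 39429 on the array, among 20886 named genes, since Slco2b1 had a pair of probes and every other gene 1. All mice were female C57BL/6N mice on a normal formula diet (NFD), sampled 6 months after the diets began, with 3 mice in each group. The carbohydrate of Ctrl mice was corn starch with sucrose, RS mice received the same diet with resveratrol added, DJ mice received Dongjin rice in place of the starch and sucrose, and DJ526 mice received DJ526, a resveratrol-enriched rice. DJ526 is a transgenic Dongjin rice that carries a stilbene synthase gene of peanut, so that DJ526 and DJ differ in the transferred gene as well as in resveratrol. Whole cages were allotted to a diet, so that diet and cage cannot be told apart. The arrays lay on 3 slides, with the Ctrl mice and DJ replicate 1 on slide 1, DJ replicates 2 and 3 and RS replicates 1 and 2 on slide 2, and RS replicate 3 and the DJ526 mice on slide 3.

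Hepatocytes take up organic anions, bile acids, hormones and drugs from sinusoidal blood through the organic anion transporting polypeptides (Slco genes) and the organic anion transporters (Slc22 genes). After conjugation to glucuronide, sulfate or glutathione, the products leave through ATP-binding cassette pumps, either across the canalicular membrane into bile (Abcc2, Abcg2) or across the basolateral membrane back into blood (Abcc3, Abcc4). Resveratrol is itself glucuronidated and sulfated in gut and liver, and its conjugates are among the substrates of such pumps. The livers carried the markers of their label, as 6 of 6 hepatocyte markers were well above background on all 12 arrays. Their summed level, in multiples of each array's 75th percentile, was 1340 to 1351 in Ctrl and 1333 to 1500 in RS. It was 1402 to 1503 in DJ and 1233 to 1343 in DJ526. Between DJ526 and DJ, Alb differed by -0.29 on the log2 scale (limma unadjusted p = 0.00159, adjusted p = 0.230). Cps1 differed by 0.66 (limma unadjusted p = 0.0385, adjusted p = 0.487), so that the markers lay on both sides. The part of these in the transporter values was not tested. All 10 probes of the transporters were likewise well above background on all 12 arrays and not saturated. In bulk liver, fewer cells of a type and less RNA per cell cannot be told apart.

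Windows around the transcription start were available for 7 of the 9 genes in a RefSeq promoter table (GRCm38.p6, 250 bases before to 50 after the start), and the windows of the 3 genes that carried every difference with an unadjusted p under 0.05 are shown. Each is written 5′ to 3′ on the strand of the gene, and capitals mark matches to the motifs searched on both strands. Abcc4 lies at chr14:118706170-118706469 on the minus strand.

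Abcc4: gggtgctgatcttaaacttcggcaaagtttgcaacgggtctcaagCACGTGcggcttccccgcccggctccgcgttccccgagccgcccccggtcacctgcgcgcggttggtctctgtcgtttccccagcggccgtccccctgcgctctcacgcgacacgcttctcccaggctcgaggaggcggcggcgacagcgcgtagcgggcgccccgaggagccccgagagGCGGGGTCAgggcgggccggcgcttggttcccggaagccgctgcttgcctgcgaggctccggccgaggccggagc

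Slco1a4 lies at chr6:141856171-141856470 and Slco1a1 at chr6:141946913-141947212, both on the minus strand, so that these related uptake carriers start near each other on chromosome 6.

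Slco1a4: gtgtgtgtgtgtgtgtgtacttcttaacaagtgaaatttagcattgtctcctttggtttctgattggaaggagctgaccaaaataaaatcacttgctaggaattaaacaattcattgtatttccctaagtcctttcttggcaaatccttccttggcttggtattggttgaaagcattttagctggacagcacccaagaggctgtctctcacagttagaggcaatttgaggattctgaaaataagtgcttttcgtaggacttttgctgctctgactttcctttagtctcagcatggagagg

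Slco1a1: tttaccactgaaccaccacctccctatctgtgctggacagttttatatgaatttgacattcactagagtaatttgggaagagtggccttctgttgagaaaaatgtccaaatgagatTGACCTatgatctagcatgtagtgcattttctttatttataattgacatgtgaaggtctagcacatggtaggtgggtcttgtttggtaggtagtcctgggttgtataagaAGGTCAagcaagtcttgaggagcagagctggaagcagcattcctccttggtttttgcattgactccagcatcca

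The Abcc4 window held 1 match to TGACNNNGC, the core of the antioxidant response element, and 1 to the E-box CACGTG, which are present in 12.4% and 7.15% of all 32851 windows. The Slco1a1 window held 2 matches to AGGTCA, the nuclear receptor half-site, which is present in 16.3% of windows. The Slco1a4 window held none of the 4 motifs, including GTTAAT, the HNF1 half-site, present in 7.1% of windows. In genes without such a difference, the antioxidant response core and the nuclear receptor half-site also occurred, while the E-box did not. Abcc2 had 1 antioxidant response core and 1 nuclear receptor half-site, and Abcg2 had 2 such half-sites. Slco1b2 had 1 nuclear receptor and 1 HNF1 half-site, and Slco2b1 held none of the 4 motifs. Where a gene had more than 1 window, as Abcc4 with 2, the most upstream was read. The matches shown do not overlap one another, and a match is a description of the sequence only.

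None of the 9 genes passed the adjusted threshold in any of the 8 comparisons, and the lowest adjusted p was 0.392 (limma, Benjamini-Hochberg over 39429 probes, threshold 0.05). The share of all probes called at that threshold was 0% for RS against Ctrl, 0% for DJ against Ctrl, 0.00507% for DJ526 against Ctrl, 0.0101% for DJ526 against DJ, 0.00761% for DJ526 against RS and 0% for DJ against RS, for rice against starch and sucrose, and for the difference between the resveratrol effects on rice and on starch. The differences below are therefore given as values with their 95% intervals. At an unadjusted p under 0.05 there were 8 of 54 pairs of a gene and a 2-group comparison, or 14.8%, beside 6.81% of such pairs over all probes. These 8 pairs came from 3 genes, Abcc4, Slco1a4 and Slco1a1, and since the comparisons share arrays the 8 pairs are not separate observations.

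By comparison, RS against Ctrl had 1 gene at this level, Abcc4, higher in RS, beside 6% of all probes. DJ against Ctrl had 1, Slco1a4, lower in DJ, beside 5.22%. DJ526 against Ctrl had 1, Slco1a1, lower in DJ526, beside 10.8%. DJ526 against DJ had 2, Slco1a4 higher and Slco1a1 lower in DJ526, beside 9.81%. DJ526 against RS had 1, Abcc4, lower in DJ526, beside 5.5%, and DJ against RS had 2, Abcc4 and Slco1a4, both lower in DJ, beside 3.52%. With 9 genes, 1 member is already a larger share than any of these backgrounds, so that a count of 1 says little about the set. Groups that did not overlap were counted as well. They separated Abcc4 in RS against Ctrl (1 of 9, beside 10.2% of all probes), Slco1a1 in DJ526 against Ctrl (1 of 9, beside 20.6%), Slco1a4 and Slco1a1 in DJ526 against DJ (2 of 9, beside 18.4%) and Abcc4 and Abcg2 in DJ against RS (2 of 9, beside 6.34%). They separated 0 of 9 in DJ against Ctrl (9.36%), DJ526 against RS (11.1%) and rice against starch and sucrose (0.122%). The median log2 difference of the 9 genes was 0.076 for RS against Ctrl (0.033 over all probes), 0.098 for DJ against Ctrl (-0.016), -0.00013 for DJ526 against Ctrl (0.021), 0.069 for DJ526 against DJ (0.041), -0.011 for DJ526 against RS (-0.0029) and -0.092 for DJ against RS (-0.049).

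**Figure D1:**
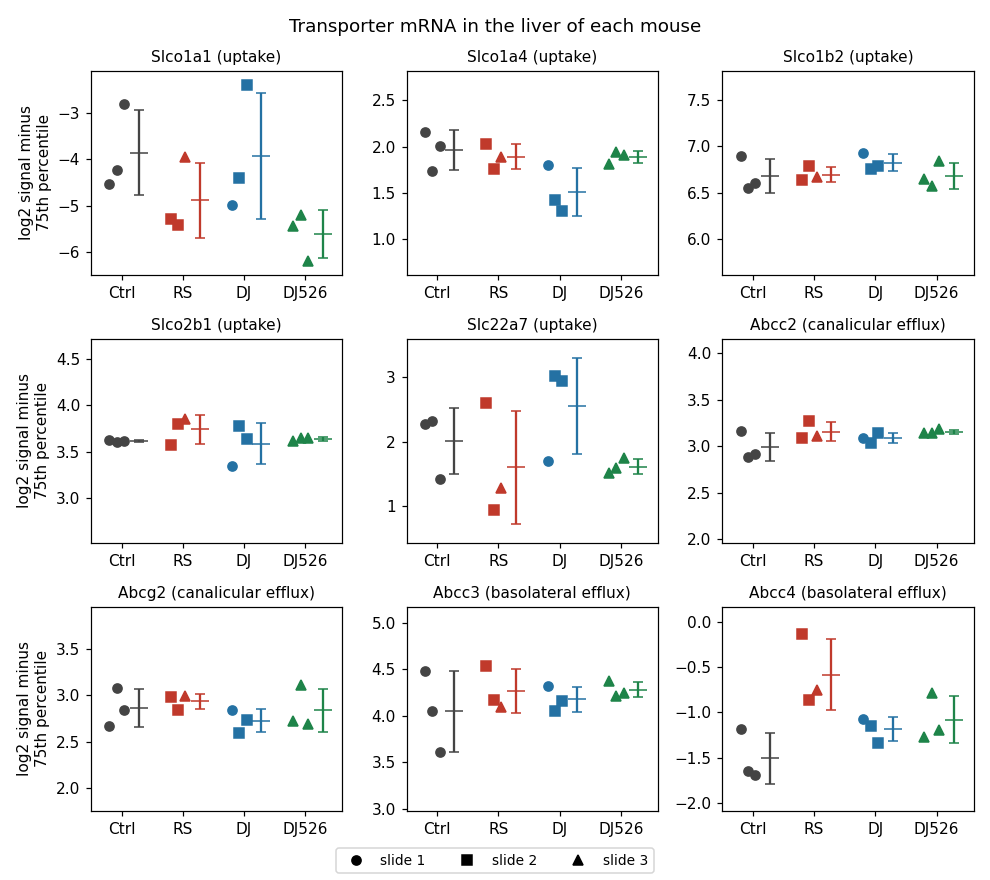
Level of each of the 9 transporter genes in the liver of each mouse (vertical axis, log2 signal relative to the array's 75th percentile; horizontal axis, diet group). Each symbol is 1 mouse, its shape gives the slide, and the bar beside the symbols gives the mean ± SD of 3 mice. The panels span unequal ranges, widest for Slco1a1, where all 3 DJ526 mice lie below all Ctrl mice, and in the panel of Abcc4 all 3 RS mice lie above all Ctrl mice.

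Slco1a4 encodes Oatp1a4, an uptake carrier for bile acids, steroid conjugates and cardiac glycosides that is a known target of the xenobiotic receptor Nr1i2. Its level, here and below the log2 signal relative to the array's 75th percentile, was 2.16, 1.74 and 2.00 in the Ctrl mice and 2.03, 1.76 and 1.89 in the RS mice. It was 1.80, 1.43 and 1.31 in the DJ mice and 1.82, 1.94 and 1.91 in the DJ526 mice. DJ replicates 2 and 3 were the lowest of the 12 mice, while DJ replicate 1 lay among the Ctrl and RS mice, so that DJ overlapped both of those groups and lay wholly below DJ526.

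On the log2 scale, Slco1a4 was lower in DJ than in Ctrl by a difference of -0.46 (SE 0.137, 95% interval -0.76 to -0.15, n = 3 against 3; limma unadjusted p = 0.00683, adjusted p = 0.815). DJ526 exceeded DJ by 0.38 (limma unadjusted p = 0.0182, adjusted p = 0.438), and the difference of DJ from RS was -0.38 (limma unadjusted p = 0.0175, adjusted p = 1.00). DJ526 and Ctrl differed by -0.076, with an interval of -0.38 to 0.23, and the mean of DJ was the lowest of the 4 groups. Rice against starch and sucrose gave -0.23 (SE 0.0969, limma unadjusted p = 0.0375, adjusted p = 0.975), with 4.57% of all probes at an unadjusted p under 0.05. The resveratrol effect on rice exceeded that on starch by 0.45 (SE 0.194, limma unadjusted p = 0.0398, adjusted p = 0.800), beside 6.09% of all probes.

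Slide moved with the low Slco1a4 values, as DJ replicates 2 and 3 shared slide 2. Within slide 1, the single DJ mouse differed from the mean of the 3 Ctrl mice by -0.17, and within slide 2 the DJ mice differed from the RS mice by -0.53. With slide as a block in limma, DJ against Ctrl was -0.17 (unadjusted p = 0.329), DJ against RS -0.53 (unadjusted p = 0.00464) and DJ526 against DJ 0.54 (unadjusted p = 0.0351). Rice against starch and sucrose was then -0.081 (unadjusted p = 0.499), and the resveratrol effects on rice and on starch differed by 0.17 (unadjusted p = 0.469). The lower level in DJ was thus present beside RS on the same slide and smaller beside Ctrl on the same slide. If the arrays labelled DJ and RS were exchanged, as 1 supplementary sample list has them, DJ against Ctrl would be -0.072.

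Slco1a1 encodes Oatp1a1, an uptake carrier for sulfated steroids and other organic anions that predominates in male mouse liver and is low in females. Its level was -4.53, -4.23 and -2.81 in Ctrl, -5.28, -5.42 and -3.95 in RS, -4.98, -4.39 and -2.38 in DJ and -5.44, -5.20 and -6.19 in DJ526. The probe was dim but well above background on all 12 arrays. Its background-subtracted signal was 26.8, 29.3 and 14.4 in the DJ526 mice. The lowest signals well above background on those arrays were 7.38, 7.20 and 8.36, so that the log2 differences of Slco1a1 rest on signals near that floor. Replicate 3 in each of Ctrl, RS and DJ stood more than 1 log2 unit above the other mice of its group. The DJ526 mice were all low, with replicate 3 the lowest. The DJ526 mice lay below every Ctrl and DJ mouse and overlapped the RS mice.

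The difference of DJ526 from Ctrl in Slco1a1 was -1.75 on the log2 scale (SE 0.676, 95% interval -3.24 to -0.27; limma unadjusted p = 0.0250, adjusted p = 0.392), or 3.37-fold lower. DJ526 differed from DJ by -1.69 (interval -3.18 to -0.20; limma unadjusted p = 0.0294, adjusted p = 0.473), from RS by -0.73 (interval -2.22 to 0.76), and RS from Ctrl by -1.02 (interval -2.51 to 0.47). Without Ctrl replicate 3 the difference from Ctrl was -1.23 (limma unadjusted p = 0.111), and without DJ replicate 3 the difference from DJ was -0.92 (limma unadjusted p = 0.142). Within slide 3 the DJ526 mice differed from the single RS mouse by -1.66, and with slide as a block the difference from Ctrl was -4.75 (limma unadjusted p = 0.00685, adjusted p = 0.254). The blocked difference of DJ526 from DJ was -3.62 (limma unadjusted p = 0.00871), that of RS from Ctrl was -3.08 (limma unadjusted p = 0.0194), that of DJ from RS was 1.96 (limma unadjusted p = 0.0222) and that of rice from starch and sucrose was -1.39 (limma unadjusted p = 0.0394). Ctrl lay only on slide 1 and DJ526 only on slide 3, so that the blocked value joins these groups through the RS and DJ mice.

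Place on the array also moved with Slco1a1 where DJ526 was compared with Ctrl or DJ, a check chosen after its values were seen. The probe lay at row 451 of 532 and column 11 of 85, and the 367 probes of like signal around it had a median difference of -0.18 between DJ526 and Ctrl, beside 0.12 for the 5848 probes of like signal elsewhere. Slco1a1 minus the median of its surroundings was -1.58, and 1.91% of the surrounding probes were as low. For DJ526 against DJ these medians were -0.17 nearby and 0.15 elsewhere. They were 0.053 and 0.080 for RS against Ctrl, where Slco1a1 differed by -1.02. For DJ against RS, where it differed by 0.96, they were -0.059 and -0.12. Markers of other cells also differed between DJ526 and Ctrl, none past the adjusted threshold. The summed level of 6 kidney tubule markers was 0.347 to 0.426 times the 75th percentile in Ctrl, 0.385 to 0.642 in RS, 0.347 to 0.521 in DJ and 0.556 to 0.626 in DJ526, with Slc12a1 not above background on any array. Umod, Kap and Slc22a12 were well above background on only 7, 6 and 2 arrays. The sum rested mostly on Slc22a6, whose mean log2 level was -1.74 in Ctrl and -1.19 in DJ526. The summed level of 6 adipocyte markers was 2.25 to 4.83 in Ctrl, 1.56 to 3.17 in RS, 1.83 to 2.86 in DJ and 1.61 to 1.94 in DJ526, with all 6 above background on at least 1 array. Within that list Fabp4 differed by -0.71 and Lep by 0.85 between DJ526 and Ctrl (limma unadjusted p = 0.00715 and 0.0136), so that its members lay on both sides. The part of these in the Slco1a1 values was not tested.

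Slc22a7 encodes Oat2, an uptake carrier for small organic anions and nucleotides. Its level was 2.28, 2.32 and 1.43 in Ctrl, 2.60, 0.94 and 1.29 in RS, 1.70, 3.01 and 2.94 in DJ and 1.52, 1.58 and 1.74 in DJ526. The DJ526 mice were close together (SD 0.116) while the RS mice spanned 1.66 log2 units (SD 0.876), and no pair of groups was separate. The difference of DJ from RS was 0.95 (interval -0.025 to 1.92; limma unadjusted p = 0.0552, adjusted p = 1.00), and that of DJ526 from DJ was -0.94 (interval -1.91 to 0.032; limma unadjusted p = 0.0568). The former was 0.61 without RS replicate 2, 1.44 without RS replicate 1 and 1.21 within slide 2, which was also the value with slide as a block (limma unadjusted p = 0.0297).

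Slco1b2, the liver carrier for bilirubin, bile acids and statins, and Slco2b1, a carrier for sulfated steroids, spanned narrow ranges. Slco1b2 was 6.89, 6.55 and 6.60 in Ctrl, 6.63, 6.79 and 6.67 in RS, 6.93, 6.76 and 6.79 in DJ and 6.65, 6.57 and 6.84 in DJ526. All groups overlapped, its 6 differences lay between -0.14 and 0.14, and their intervals stayed within -0.37 to 0.37. By its brighter probe, Slco2b1 was 3.62, 3.60 and 3.61 in Ctrl, 3.57, 3.80 and 3.86 in RS, 3.34, 3.78 and 3.63 in DJ and 3.61, 3.65 and 3.64 in DJ526. Its differences lay between -0.16 and 0.13, with intervals within -0.39 to 0.36, and the other probe gave 0.21 for RS against Ctrl where the brighter one gave 0.13. Both probes had their highest mean in RS. With slide as a block, rice against starch and sucrose in Slco2b1 was -0.25 (limma unadjusted p = 0.0074), beside -0.067 without it. The blocked differences from Ctrl were -0.51 for DJ526 and -0.27 for DJ (limma unadjusted p = 0.0133 and 0.0248). Without the block they were 0.022 and -0.030, so that the narrow limits above hold only without it. The blocked DJ value is the within-slide difference of DJ replicate 1, the lowest of the 12 mice, from the Ctrl mice. The blocked DJ526 value joins Ctrl through that mouse, the slide 2 mice and RS replicate 3, so both rest in part on single mice.

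The canalicular pumps also varied little. Abcc2 encodes Mrp2, which exports conjugated bilirubin and glutathione conjugates into bile, and was 3.16, 2.89 and 2.92 in Ctrl, 3.09, 3.27 and 3.10 in RS, 3.09, 3.03 and 3.15 in DJ and 3.14, 3.15 and 3.18 in DJ526. Ctrl replicates 2 and 3 were the lowest of the 12 mice and Ctrl replicate 1 lay among the rest. The 6 differences lay between -0.068 and 0.17, their intervals within -0.25 to 0.35, and the lowest unadjusted p in limma was 0.0656. Abcg2 encodes Bcrp, which exports sulfate conjugates and urate, and was 2.67, 3.08 and 2.84 in Ctrl, 2.98, 2.85 and 2.99 in RS, 2.84, 2.60 and 2.74 in DJ and 2.72, 3.11 and 2.69 in DJ526. Every DJ mouse lay below every RS mouse, the nearest being RS replicate 2 and DJ replicate 1, and the difference of -0.21 had an unadjusted p of 0.129 in limma. The intervals of its 6 differences stayed within -0.50 to 0.40.

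Abcc3 and Abcc4 export conjugates across the basolateral membrane into blood. Abcc3 encodes Mrp3, a pump for glucuronides, and was 4.48, 4.06 and 3.61 in Ctrl, 4.54, 4.17 and 4.10 in RS, 4.32, 4.05 and 4.16 in DJ and 4.37, 4.22 and 4.25 in DJ526. Ctrl held both a high and the lowest mouse, so that all groups overlapped it. The 6 differences lay between -0.092 and 0.23, with intervals within -0.51 to 0.64 and a lowest unadjusted p of 0.250 in limma. The difference of DJ526 from Ctrl, 0.23, rested on single Ctrl mice, being 0.0081 without Ctrl replicate 3 and 0.45 without Ctrl replicate 1, and it was 0.70 with slide as a block (limma unadjusted p = 0.159).

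Abcc4 encodes Mrp4, a pump for sulfate conjugates, bile acids and cyclic nucleotides. Its level was -1.18, -1.65 and -1.69 in Ctrl, -0.14, -0.87 and -0.75 in RS, -1.07, -1.15 and -1.33 in DJ and -1.27, -0.79 and -1.19 in DJ526. The RS mice lay above all Ctrl and all DJ mice and overlapped DJ526, with RS replicate 1 the highest of the 12. RS exceeded Ctrl by 0.92 log2 units, or 1.89-fold (SE 0.207, 95% interval 0.46 to 1.38, n = 3 against 3; limma unadjusted p = 0.000998, adjusted p = 0.438). DJ exceeded Ctrl by 0.32 (interval -0.14 to 0.78) and DJ526 exceeded Ctrl by 0.42 (interval -0.032 to 0.88; limma unadjusted p = 0.0655).

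RS also had a higher mean of Abcc4 than both rice groups. DJ differed from RS by -0.60 (limma unadjusted p = 0.0144, adjusted p = 1.00) and DJ526 from RS by -0.50 (limma unadjusted p = 0.0356, adjusted p = 0.852), while DJ526 exceeded DJ by 0.11 (interval -0.35 to 0.56). The resveratrol effect on rice was smaller than that on starch by a difference of -0.82 (SE 0.293, interval -1.46 to -0.17; limma unadjusted p = 0.0179, adjusted p = 0.724). Leaving out any 1 mouse gave 0.70 to 1.08 for RS against Ctrl, with an unadjusted p of at most 0.00549 in limma. Without RS replicate 1, DJ against RS was -0.38 (unadjusted p = 0.0675 in limma) and DJ526 against RS was -0.27 (unadjusted p = 0.170 in limma).

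RS and Ctrl shared no slide, so that the Abcc4 difference between them has no within-slide value. With slide as a block in limma it was 1.17 (unadjusted p = 0.0181), while DJ against RS was -0.74 (unadjusted p = 0.0214). DJ526 against RS was then -0.33 (unadjusted p = 0.311) and the difference between the resveratrol effects -0.76 (unadjusted p = 0.114), so that these no longer had an unadjusted p under 0.05. The differences within slide 2 (DJ against RS) and within slide 3 (DJ526 against the single RS mouse) were the same -0.74 and -0.33. Within slide 1, the single DJ mouse exceeded the Ctrl mean by 0.43. If the arrays labelled DJ and RS were exchanged, RS against Ctrl would be 0.32 and DJ against Ctrl 0.92, so that the group to which the highest Abcc4 level belongs rests on those labels. The summed level of 5 Kupffer cell markers was 71.2 to 131 in Ctrl, 57.4 to 80.6 in RS, 54.9 to 85.4 in DJ and 55.9 to 84.0 in DJ526, with all 5 above background, and its part in the Abcc4 values was not tested.

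**Figure D2:**
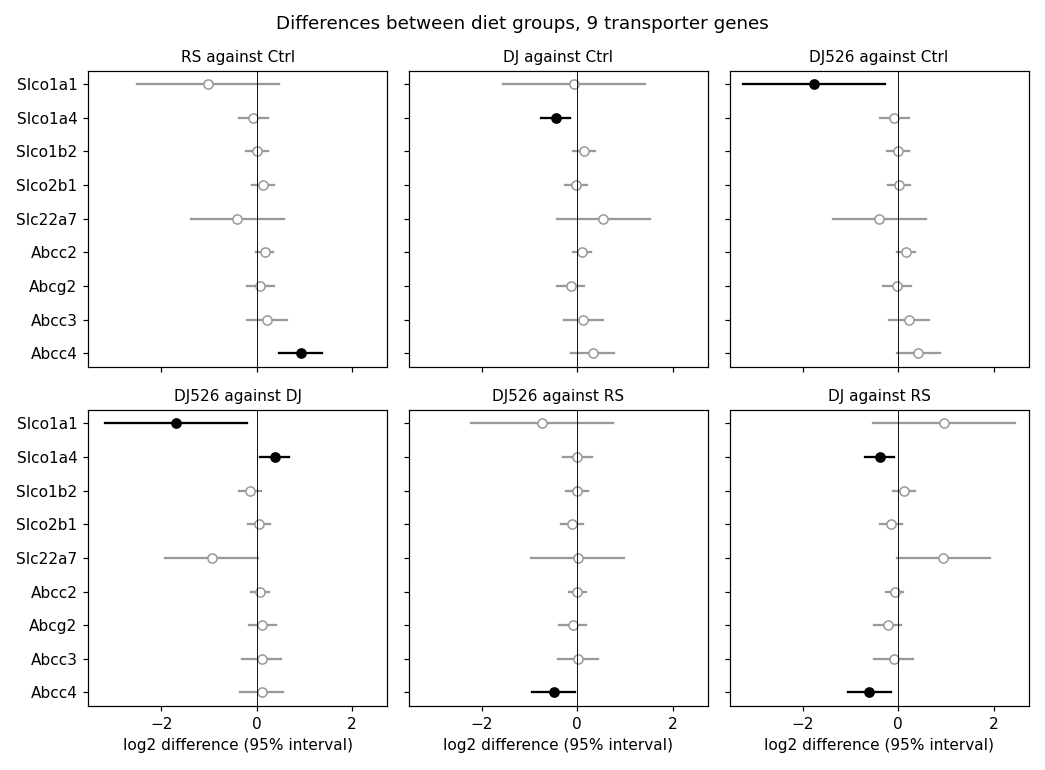
Log2 difference between diet groups for each of the 9 transporter genes (horizontal axis, with 95% intervals from limma; 1 panel per comparison, n = 3 against 3). Filled black points have an unadjusted p under 0.05 and open grey points do not. There are 8 black points, all of Abcc4, Slco1a4 or Slco1a1, none of which passed the adjusted threshold, and the intervals of Slco1a1 and Slc22a7 are the widest.

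**Figure D3:**
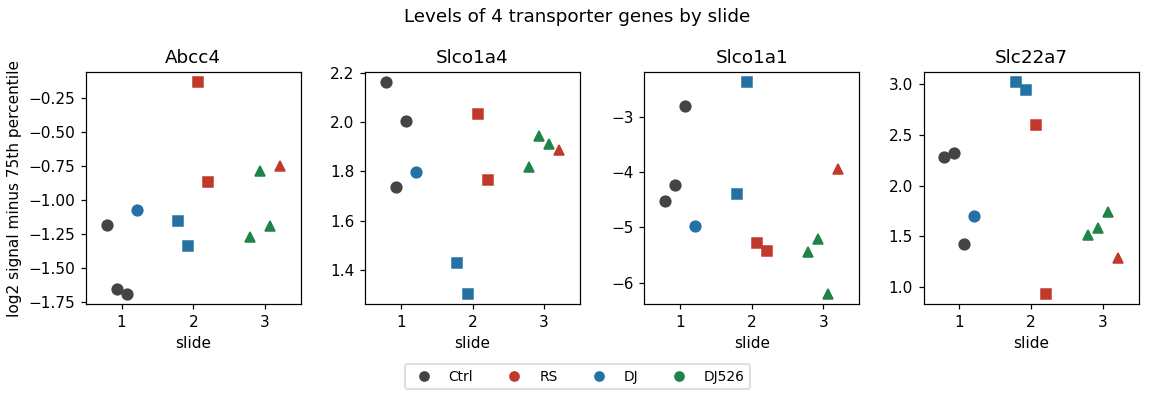
Levels of Abcc4, Slco1a4, Slco1a1 and Slc22a7 (vertical axis, log2 signal relative to the array's 75th percentile) in each mouse by slide (horizontal axis), with colour for the diet group and 1 symbol per mouse. Groups can be compared within a slide only for DJ and Ctrl on slide 1, DJ and RS on slide 2, and DJ526 and RS on slide 3. The DJ mice of slide 2 lie below the RS mice of that slide in Slco1a4 and Abcc4.

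The genes differed widely in how much mice on the same diet varied. The within-group SD of Slco1a1 was 0.953 log2 units, higher than that of 98.9% of the 27283 probes well above background on all arrays, and that of Slc22a7 was 0.629, higher than 96.1%. Abcc4 stood at 0.281 (72.1%) and Abcc2 at 0.0951 (12.7%). Over the 12 mice Slco1a1 spanned 3.81 log2 units, Slc22a7 2.08, Abcc4 1.55 and Slco1b2 0.37. The 2 most variable genes were thus both uptake carriers, as were Slco1b2 and Slco2b1 with their narrow ranges.

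Across the 12 arrays, which share groups and slides, the levels of Abcc3 and Abcc4 had a Pearson r of 0.60, those of Abcc2 and Abcc3 0.57, and those of Abcg2 and Slco1b2 -0.67. Those of the related genes Slco1a1 and Slco1a4 had an r of -0.39. The named genes whose pattern was most like that of a member, among 20290 probes, were Lsm4 (r = 0.886), Psmc1 (0.862) and Grin3b (0.856) for Slco1a1. They were Mcts2 (0.949), Kat5 (0.948) and Lrsam1 (0.943) for Slc22a7, and Pnma3 (0.871), Ces1g (0.859) and Mrpl14 (0.859) for Abcc4. Ces1g, a liver carboxylesterase, ranged from 2.92 in Ctrl replicate 3 to 4.01 in RS replicate 1. Lsm4 spanned only 3.52 to 3.82 and Psmc1 only 3.34 to 3.61. These r values are the highest among 20290 probes over 12 arrays, and the level that arises by chance was not assessed.

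Other genes of the same pathway were read from lists of further transporters, receptors known to act on transporter genes, and marker targets of those receptors, of which 62 of 65 genes were measured. None passed the adjusted threshold in any comparison. At an unadjusted p under 0.05, RS against Ctrl had 8 of the 62 higher and 0 lower, beside 4.05% and 1.96% of all probes. DJ against Ctrl had 4 higher and 3 lower (2.67% and 2.55% of all probes), and DJ526 against Ctrl had 6 higher and 5 lower (6.49% and 4.31%). There were 2 higher and 3 lower in DJ526 against DJ (5.62% and 4.18%), 3 and 3 in DJ526 against RS (2.35% and 3.15%), and 2 and 4 in DJ against RS (1.2% and 2.33%). In RS against Ctrl the 8 included no efflux pump of the basolateral membrane, where Abcc4 lies.

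Among the other canalicular pumps, 9 of 9 were measured, and Abcb1a and Abcb1b, which encode the drug efflux pump P-glycoprotein, had their lowest means in DJ. Abcb1a was 0.35, 0.030 and 0.0066 in Ctrl, 0.54, 0.20 and 0.36 in RS, -0.35, -0.32 and -0.67 in DJ and -0.034, 0.13 and 0.098 in DJ526. All 3 DJ mice lay below the other 9, including DJ replicate 1 on slide 1. DJ differed from RS by -0.81 (SE 0.130, limma unadjusted p = 6.28e-05, adjusted p = 0.932) and from Ctrl by -0.57 (limma unadjusted p = 0.00103, adjusted p = 0.650). For Abcb1b the difference of DJ from RS was -0.66 (limma unadjusted p = 0.00322, adjusted p = 1.00). Abcg8, which forms the sterol exporter with Abcg5, was 0.45 higher in RS and 0.35 higher in DJ526 than in Ctrl (limma unadjusted p = 0.0168 and 0.0486). Abcb11, the bile salt export pump, was 0.42 higher in DJ526 and 0.39 higher in DJ than in RS (limma unadjusted p = 0.0179 and 0.0250). Of 8 other basolateral exporters only Abca1, the cholesterol exporter to apolipoprotein A1, had such a value, -0.28 for DJ526 against Ctrl.

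Of 14 other uptake carriers measured, Slc22a18 was 0.27 higher in RS, 0.23 higher in DJ and 0.23 higher in DJ526 than in Ctrl. Slc22a28 was 0.15 higher in RS, 0.36 higher in DJ and 0.35 higher in DJ526 than in Ctrl. Slco2a1, the prostaglandin carrier, was 0.40 higher in DJ526 than in RS. Of 13 receptors and factors, the xenobiotic receptors Nr1i2 and Nr1i3 were 0.38 and 0.49 higher in RS than in Ctrl (limma unadjusted p = 0.0211 and 0.0399, adjusted p = 0.739 and 0.808). Against Ctrl, Nr1i2 was also 0.26 higher in DJ and 0.096 higher in DJ526, and Nr1i3 0.22 and 0.21 higher. The aryl hydrocarbon receptor Ahr was 0.34 higher in RS, 0.40 higher in DJ and 0.28 higher in DJ526 than in Ctrl (limma unadjusted p = 0.0313, 0.0148 and 0.0648). Nr5a2, a regulator of bile acid synthesis, was 0.29 higher in DJ526 and 0.22 higher in DJ than in RS.

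Of 18 marker targets, Cyp1a1 and Cyp1a2 are the classic targets of Ahr. Cyp1a1 was higher than in Ctrl by 1.19 in RS, 1.25 in DJ and 1.19 in DJ526 (limma unadjusted p = 0.0105, 0.00784 and 0.0102). These 3 differences share the same Ctrl mice, and their cause was not tested. Cyp1a1 was dim like Slco1a1, with a mean level of -5.20 in Ctrl and -5.91 in the lowest mouse, though well above background on all 12 arrays. Cyp1a2 was higher by 0.79 in RS, 0.44 in DJ and 0.77 in DJ526 (limma unadjusted p = 0.00501, 0.0757 and 0.00571). Cyp3a11, the classic target of Nr1i2, differed by -0.88 between DJ526 and DJ (limma unadjusted p = 0.00649, adjusted p = 0.350), by -0.81 between DJ526 and Ctrl, by -0.75 between DJ526 and RS and by -0.059 between RS and Ctrl. Cyp8b1, which sets the balance of bile acids, differed by -2.47 between DJ526 and Ctrl (SE 0.667, limma unadjusted p = 0.00345, adjusted p = 0.235), by -2.42 between DJ526 and DJ and by -2.08 between DJ526 and RS. Its level was -1.35, -0.61 and -3.91 in the DJ526 mice (SD 1.73). The size of these differences thus rests in large part on DJ526 replicate 3.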

How the data were processed

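Liver RNA of 12 mice was measured on 12 one-colour arrays, and groups were taken from the labels. The authors deposited the signal intensity of every spot from Feature Extraction (version 11.5.1.1, per the file headers), including a background-subtracted processed signal, and a table of that intensity times 1 factor per array. Spots with outlier flags were left out, spots of 1 probe were averaged, and the log2 of this processed signal was taken relative to the array's 75th percentile over non-control spots (953 to 1167). The log2 step was made here and not by the authors. Of the non-control spots, 73.0% to 80.8% were well above background on an array, and the number of arrays limits the precision. Probes were named through RefSeq accessions (27508 of 39429), and 68 probes, no member among them, lacked a value on some array. The brightest probe represented a gene.

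limma (version 3.58.1, R 4.3.3) was run over all 12 arrays with a mean for each group and a variance trend on signal, with Benjamini-Hochberg adjustment across every probe. The fit was tested on simulated data. Nothing states that labels with the same number are related mice. The p-values measure the spread between mice within a group, which for DJ and RS also holds differences between slides. Alternatives were other background corrections, scalings and filters, no variance trend, slide or replicate number as a block, fits of only the groups compared, the methods' t-test, the mean over a gene's probes, the values of the deposited table, DJ and RS exchanged, and each mouse left out in turn. The members and gene lists were chosen with earlier results of these data known. Other genes were named from the lists where they passed the adjusted threshold, or otherwise as the up to 4 of a list with the lowest unadjusted p under 0.05 in a 2-group comparison. The rule named 1 further gene that is not reported here. Likeness was read for the 3 members with the widest range. Tables were handled with Python 3.11.15, numpy 2.4.6 and pandas 2.3.3, and figures were drawn with matplotlib 3.10.9.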

Additional observations from a re-analysis of the deposited data

How the results depend on the processing

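The number of the 9 genes past the adjusted threshold was 0 under every alternative run, which were 24 for each comparison of 2 groups and 22 for rice against starch and sucrose and for the difference between the resveratrol effects, 12 of them leaving out a mouse. The methods' t-test and a fit of only the groups compared were not run for the latter comparisons. Single values were followed only for pairs of a gene and a comparison with an unadjusted p under 0.05 in the main limma fit. For a gene without such a pair, its largest 2-group difference was followed. Of these values 9 turned direction. With DJ and RS exchanged, DJ526 against RS became 0.11 for Abcc4, DJ526 against DJ became -0.0033 for Slco1a4, rice against starch and sucrose became 0.15 for Slco1a4, and DJ against RS became 0.60 for Abcc4, 0.38 for Slco1a4, 0.21 for Abcg2, 0.16 for Slco2b1 and -0.95 for Slc22a7, by construction of the exchange. With slide as a block, DJ against RS for Slco2b1 became 0.023, and the cause was not tested. The other 393 values followed kept their direction. Pairs that were not followed also turned with slide as a block. Slco2b1 in DJ526 against Ctrl went from 0.022 to -0.51, and Slc22a7 in DJ against Ctrl from 0.54 to -0.31. The median of all probes moved by at most 0.0859 log2 units with another scaling and by at most 0.112 with the normexp background correction. By setting, apart from the runs without a mouse, Abcc4 in RS against Ctrl ranged from 0.32 to 1.17. Slco1a4 in DJ against Ctrl ranged from -0.50 to -0.072, and Slco1a1 in DJ526 against Ctrl from -4.75 to -0.88. The values 0.32 and -0.072 came from the exchange of DJ and RS, not from a change of processing. The methods' t-test had an unadjusted p under 0.05 for Abcc4 in RS against Ctrl and Slco1a1 in DJ526 against Ctrl.

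Deviations of mice with equal replicate numbers had correlations of -0.27 to 0.26. Mice with unlike numbers were not set beside them, so that these values cannot decide whether the numbers pair the mice. With the replicate block, 0 of the 9 genes passed in each comparison, and the probes called over the whole array were 0 in DJ526 against Ctrl, DJ and RS, where the fit without the block called 2, 4 and 3.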
